A study of Homo sapiens with 15 samples.

Results

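The IL1 cytokines, the chemokines and the feedback inhibitors of NF-kB were followed as a set of 10 genes in U87MG, a human glioblastoma cell line. The set was IL1B, IL1A, IL36B, CXCL8, CXCL1, CXCL2, CXCL3, CCL2, NFKBIA and TNFAIP3, each present as 1 of the 25737 entries of the expression table. The genes were chosen by symbol after IL1B had been seen higher in the control group of these libraries, so every difference of these 10 genes from the control is given as a description without a test. Tests of the 10 genes were run only between the 4 ID groups, a contrast in which IL1B had not been selected. The set was still chosen with earlier results of these data known, so these tests are not fully independent of the choice.

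The cells had been exposed for 24 h to a lentivirus, which was either the control vector (GFP) or a vector meant to raise ID1, ID2, ID3 or ID4, members of a family of helix-loop-helix proteins that hold back basic helix-loop-helix transcription factors. Each of the 5 groups had 3 libraries, made from total RNA with a kit that reads the 3′ ends of mRNAs, and all groups shared the cell line, its growth medium and a lentiviral exposure. The labels did not say whether the 3 libraries of a group came from separate cultures, so p-values measure only the spread between these libraries. A single cell line stands for glioblastoma here, and in a bulk library fewer cells that make an mRNA and less of it per cell cannot be told apart.

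Interleukin 1 beta is made as a precursor in the cytosol, cut to its active form by caspase-1 and released. It binds the receptor IL1R1, which signals through MYD88, the IRAK kinases and the IKK complex to the NF-kB transcription factors. NF-kB in turn raises the chemokine genes, IL1B itself and its own inhibitors NFKBIA and TNFAIP3. CXCL8 and CCL2 are known for drawing neutrophils and monocytes, also into glioblastoma.

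Totals ran from 11089044 to 15148979 counts per library, so that 3 counts, used as the detection floor, equalled 0.198 to 0.271 CPM, the count scaled to the library total. The mRNA of the gene named in each label was looked at. Whether reads from 3′ ends count the mRNA of each vector is not given in the sources used here. In the 3 GFP libraries ID4 had at most 2 counts, and in those labelled ID4 it had 2479 to 3110, and ID3 averaged 221 CPM in GFP and 313 CPM (301 to 323) in ID3, but also 287 CPM (268 to 319) in ID2. ID1 averaged 344 CPM in GFP and 250 CPM in the ID1 group, and ID2 averaged 85.7 CPM in GFP and 44.9 CPM in the ID2 group, so neither gene was higher in the libraries labelled with it. ID2 was also below GFP in the other ID groups, at 34.3 CPM in ID1, 46.7 in ID3 and 35.9 in ID4. The groups labelled ID1 and ID2 are therefore named by label only. The level of ID3 did not part the ID3 group from the ID2 group, whose libraries overlapped. VIM, CD44, TNC and NES, genes of a mesenchymal glioma line, were present in every library, while the glial genes GFAP, SOX10 and AQP4 had 0 to 4 counts. Of 7 myeloid markers counted, PTPRC, CD14, ITGAM, TYROBP, LYZ and FCER1G had 0 to 9 counts in each library and CSF1R had 31 to 81, and their summed level was 3.23 to 5.56 CPM in GFP and 4.56 to 6.58 CPM in the ID groups. Endothelial and epithelial markers summed to at most 15 counts in a library. The 5 glial markers summed to 4.58 to 5.44 CPM in GFP and 0.925 to 2.30 CPM in the ID groups, most of it MBP, and the part of this in the differences from GFP was not tested.

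The 150 bases before the gene start are shown for 7 of the genes, because CXCL1, CXCL2 and CXCL3 have nearly the same upstream sequence. Their lowest means lay in ID4 for CXCL2 and in ID2 for CXCL1 and CXCL3. Between ID4 and ID2, CXCL1 and CXCL3 did not pass the test (edgeR adjusted p = 0.315 and 0.364). CXCL2 passed it in that pair (edgeR adjusted p = 0.0357), though not with some single libraries left out. The sequences are from RefSeq on GRCh38.p14, on the strand of the gene, 5′ to 3′, and 8 of the 10 genes matched an entry. Capitals mark a match, on either strand, to the NF-kB consensus or to GGAATTTCC, the 9-base core that was picked after the sequences had been seen.
CXCL8, chr4:73740419-73740568, plus strand: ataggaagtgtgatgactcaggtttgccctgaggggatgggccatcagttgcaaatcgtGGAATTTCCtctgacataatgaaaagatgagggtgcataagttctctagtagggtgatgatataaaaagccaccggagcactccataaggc
CXCL1, chr4:73869243-73869392, plus strand: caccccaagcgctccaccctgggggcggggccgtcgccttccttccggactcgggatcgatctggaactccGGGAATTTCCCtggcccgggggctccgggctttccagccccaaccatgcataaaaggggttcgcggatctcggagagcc
CXCL2, chr4:74099196-74099345, minus strand: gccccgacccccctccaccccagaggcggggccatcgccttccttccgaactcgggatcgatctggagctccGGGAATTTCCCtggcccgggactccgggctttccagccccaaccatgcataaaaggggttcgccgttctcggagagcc
CXCL3, chr4:74038690-74038839, minus strand: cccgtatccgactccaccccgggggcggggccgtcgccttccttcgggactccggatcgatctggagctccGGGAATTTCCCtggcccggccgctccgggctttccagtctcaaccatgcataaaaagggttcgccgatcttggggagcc
NFKBIA, chr14:35404750-35404899, minus strand: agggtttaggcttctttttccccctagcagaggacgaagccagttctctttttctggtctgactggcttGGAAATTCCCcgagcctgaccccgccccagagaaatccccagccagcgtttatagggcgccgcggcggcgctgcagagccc
TNFAIP3, chr6:137867109-137867258, plus strand: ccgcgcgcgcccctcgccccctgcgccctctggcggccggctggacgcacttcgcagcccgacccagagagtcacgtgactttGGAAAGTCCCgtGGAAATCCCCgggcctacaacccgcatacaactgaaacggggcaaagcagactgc
IL1B, chr2:112836780-112836929, minus strand: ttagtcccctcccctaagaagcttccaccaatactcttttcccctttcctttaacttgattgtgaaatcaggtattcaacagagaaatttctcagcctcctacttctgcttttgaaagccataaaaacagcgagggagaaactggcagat
GGAATTTCC was found 91 to 83 bases before the start of CXCL8, at 78 to 70 bases for CXCL1 and CXCL3, at 77 to 69 bases for CXCL2, and on the opposite strand at 81 to 73 bases for NFKBIA. In CXCL1, CXCL2, CXCL3 and NFKBIA it overlaps a match to the NF-kB consensus, which was also met at 2 places in TNFAIP3, but not in the windows of CXCL8, IL1B or IL1A. Over 250 bases before the start, the consensus was in 9.96% of 35116 promoters and GGAATTTCC in 0.413%. Another 2 motifs were searched on both strands. TATAAA was found at 31 to 26 bases in CXCL8, at 33 to 28 bases on the opposite strand in NFKBIA and at 239 to 234 bases in IL1A. TGANTCA was found at 137 to 131 bases in CXCL8 and also in IL1A. They occur in 10.7% and 6.57% of promoters. CXCL1 and CXCL2 shared 90.0% of their 150 bases, CXCL1 and CXCL3 88.7%, and CXCL2 and CXCL3 88.0%, while CXCL8 shared 53.3% with each. The transcripts of CXCL1, CXCL2 and CXCL3 are also alike, and how reads that fit more than 1 of them were counted is not given in the sources used here, so their counts are uncertain in that respect.

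**Figure D1:**
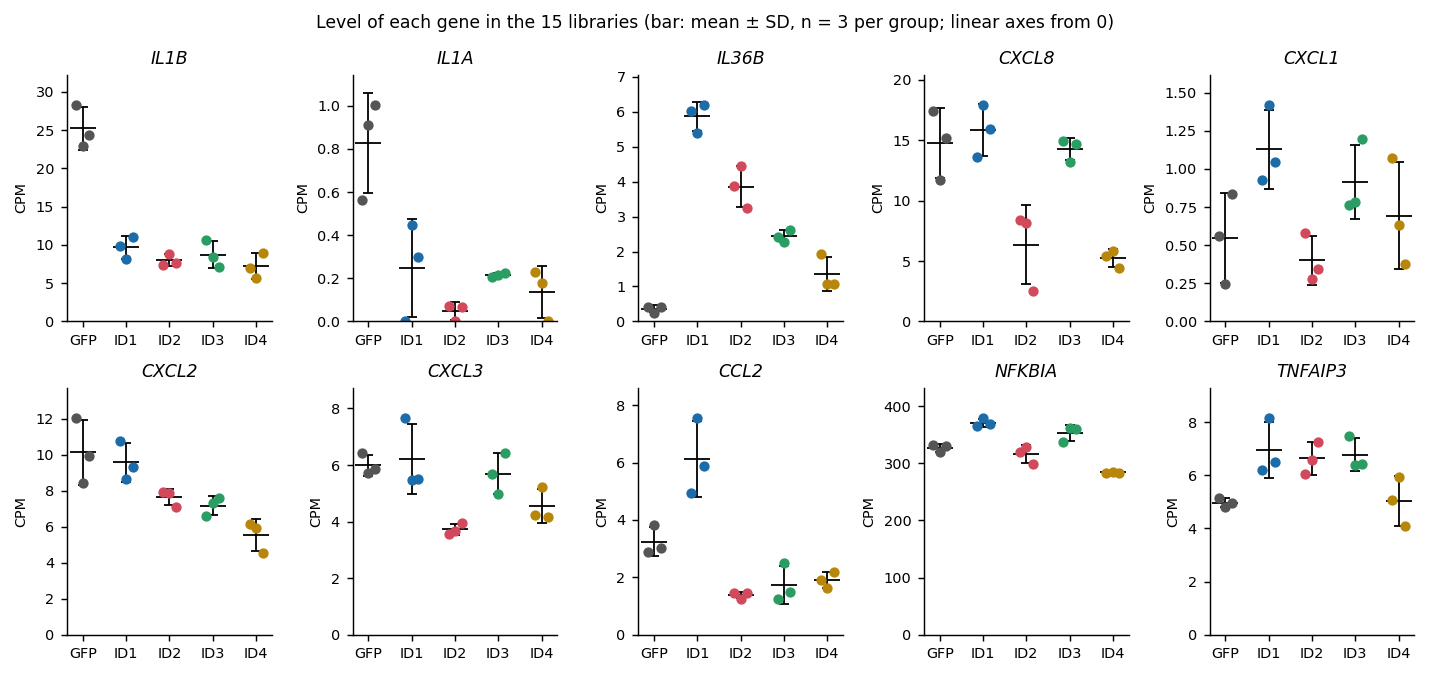
Level of each of the 10 genes in CPM (count scaled to the library total, vertical axis, from 0) in every library of the 5 groups (horizontal axis), with the mean and SD of 3 libraries. IL1B is at 23 to 28.3 CPM in GFP and 5.68 to 11 CPM in the 12 ID libraries, and IL36B runs the other way, with every ID library above GFP.

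IL1B, which encodes the secreted cytokine interleukin 1 beta (chromosome 2, 113587328 to 113594393, minus strand, GRCh37), was lower in every ID library than in any GFP library. The GFP libraries held 28.3, 23 and 24.4 CPM. The ID1 libraries held 9.84, 8.15 and 11 CPM, the ID2 libraries 7.43, 8.86 and 7.68 CPM, the ID3 libraries 10.6, 8.40 and 7.18 CPM, and the ID4 libraries 6.98, 5.68 and 9 CPM. Group means were 25.2 ± 2.77 CPM in GFP and 9.67 ± 1.45, 7.99 ± 0.764, 8.73 ± 1.74 and 7.22 ± 1.67 CPM in ID1 to ID4 (SD, n = 3). GFP was thus 2.64-fold above ID1, 3.12-fold above ID2, 2.93-fold above ID3 and 3.47-fold above ID4, a description, since IL1B was selected on this difference and the 4 ratios share the GFP libraries. The 4 ID groups overlapped one another. Their difference did not pass the test (edgeR adjusted p = 0.256), and the largest pairwise value, ID4 against ID1, was a log2 fold change of -0.40 ± 0.17 (SE, edgeR adjusted p = 0.215).

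IL1A encodes interleukin 1 alpha, which binds the same receptor and acts also from within the cell. It was near the detection floor. The GFP libraries held 8, 11 and 12 counts, the ID1 libraries 0, 6 and 4, the ID2 libraries 1, 0 and 1, the ID3 libraries 3 in each, and the ID4 libraries 3, 2 and 0. All 12 ID libraries were below all 3 GFP libraries, again on the difference the set was chosen for. IL1A did not reach the level at which genes were tested, and with no filter on low values the ID groups did not differ detectably (edgeR adjusted p = 0.459).

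IL36B encodes interleukin 36 beta, an IL1 family agonist that signals through a receptor of its own. The gene of that receptor, IL1RL2, had 0 counts in every library. IL36B lies on the same chromosome arm as IL1B and IL1A (chromosome 2, 113779666 to 113810444, minus strand, GRCh37). It was almost absent from GFP, with 6, 3 and 5 counts, which is 0.363 ± 0.0993 CPM. The ID1 libraries held 6.01, 5.38 and 6.19 CPM. Those of ID2 held 3.86, 4.43 and 3.25 CPM, those of ID3 2.43, 2.28 and 2.62 CPM, and those of ID4 1.92, 1.08 and 1.06 CPM. The groups fell in the order ID1, ID2, ID3, ID4, GFP and no 2 of them overlapped. Among the ID groups the difference passed the test (edgeR adjusted p = 1.84e-06), with ID1 4.24-fold above ID4 (log2 fold change of ID4 against ID1 -2.08 ± 0.22, edgeR adjusted p = 2.03e-06). ID1 was also 2.41-fold above ID3 (edgeR adjusted p = 0.000247) and ID2 was 2.85-fold above ID4 (edgeR adjusted p = 8.14e-05). The steps between neighbours in that order were smaller. ID1 was 1.49-fold above ID2 (edgeR adjusted p = 0.0323), ID2 1.62-fold above ID3 (edgeR adjusted p = 0.0264) and ID3 1.76-fold above ID4 (edgeR adjusted p = 0.0392). Each of these neighbour calls was lost when single libraries were left out. For ID1 and ID2 these were ID1 replicates 1 and 3 and ID2 replicates 1 and 3 (edgeR adjusted p up to 0.126), for ID2 and ID3 ID2 replicates 1 and 2 and ID3 replicates 1 and 2 (up to 0.116), and for ID3 and ID4 any ID3 library and ID4 replicates 2 and 3 (up to 0.166). DESeq2 gave adjusted p = 0.0869, 0.0598 and 0.0740 for the same steps, and limma on the deposited log2 values gave adjusted p = 0.112 and 0.0707 for the first 2 of them.

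CXCL8 encodes interleukin 8, the main neutrophil attractant of the set (chromosome 4, 74606236 to 74609433, plus strand, GRCh37). It was lower in ID2 and ID4 than in ID1 and ID3. The ID1 libraries held 13.6, 17.9 and 16 CPM and the ID3 libraries 15, 13.2 and 14.7 CPM. The ID2 libraries held 8.38, 8.17 and 2.56 CPM, the last from 37 counts, and the ID4 libraries 5.44, 5.86 and 4.46 CPM. No library of ID2 or ID4 reached the lowest of ID1 and ID3, and GFP, at 17.5, 11.7 and 15.2 CPM, overlapped ID1 and ID3 only. CXCL8 was 2.99-fold higher in ID1 than in ID4 (log2 fold change of ID4 against ID1 -1.58 ± 0.25, edgeR adjusted p = 0.000265) and 2.43-fold higher in ID1 than in ID2 (edgeR adjusted p = 0.000516). It was 2.69-fold higher in ID3 than in ID4 (edgeR adjusted p = 0.000676) and 2.19-fold higher in ID3 than in ID2 (edgeR adjusted p = 0.00226). ID1 and ID3 did not differ detectably, at a log2 fold change of -0.15 ± 0.21. ID4 against ID2 was -0.30 ± 0.28 (edgeR adjusted p = 0.506), but without ID2 replicate 3, the library with 37 counts, it was -0.67 (edgeR adjusted p = 0.0094).

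The 3 GRO chemokines CXCL1, CXCL2 and CXCL3 bind the same neutrophil receptor as CXCL8 and lie within 500 kb of it on the same chromosome (74735110 to 74737025 for CXCL1, 74962757 to 74964913 for CXCL2 and 74902306 to 74904524 for CXCL3, GRCh37). CXCL2 held 10.8, 8.67 and 9.33 CPM in ID1, 7.94, 7.89 and 7.13 CPM in ID2, 6.58, 7.33 and 7.63 CPM in ID3 and 6.13, 5.95 and 4.54 CPM in ID4. Each ID4 library was below each library of the other groups, but ID4 against ID3 did not pass the test (edgeR adjusted p = 0.166). ID1 was 1.72-fold above ID4 (log2 fold change of ID4 against ID1 -0.78 ± 0.16, edgeR adjusted p = 0.00299). ID2 was 1.40-fold above ID4 (edgeR adjusted p = 0.0357), a call lost without ID2 replicate 1 or 2 or ID4 replicate 2 or 3 (edgeR adjusted p from 0.0554 to 0.178).

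CXCL3 had its lowest mean in ID2, though ID4 against ID2 did not pass the test (edgeR adjusted p = 0.364). Its libraries held 3.57, 3.67 and 3.94 CPM in ID2, 7.66, 5.46 and 5.52 CPM in ID1, 5.68, 4.98 and 6.43 CPM in ID3 and 4.22, 5.23 and 4.16 CPM in ID4, so that ID2 overlapped none of the other groups. ID1 was 1.63-fold above ID2 (log2 fold change of ID2 against ID1 -0.71 ± 0.17, edgeR adjusted p = 0.00518), and without ID1 replicate 1 the value was -0.52 (edgeR adjusted p = 0.0507). ID3 was 1.49-fold above ID2 (edgeR adjusted p = 0.0277), which was lost without ID2 replicate 1 or 2 or ID3 replicate 1 or 3 (edgeR adjusted p from 0.0611 to 0.111). CXCL1 had only 3 to 19 counts per library, with means of 1.13, 0.402, 0.914 and 0.694 CPM in ID1 to ID4. It was 2.71-fold higher in ID1 than in ID2 (edgeR adjusted p = 0.0262), while the test over the 4 ID groups gave edgeR adjusted p = 0.0755, or 0.0464 without ID4 replicate 1. The pairwise call was lost without ID1 replicate 2 or 3 or ID2 replicate 2 or 3 (edgeR adjusted p up to 0.110), and DESeq2 gave adjusted p = 0.0538.

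CCL2 encodes the monocyte attractant MCP-1 (chromosome 17, 32582293 to 32584227, plus strand, GRCh37) and was highest in ID1. The ID1 libraries held 4.95, 7.55 and 5.89 CPM. GFP held 2.89, 3.81 and 3.01 CPM, ID2 1.46, 1.25 and 1.45 CPM, ID3 1.25, 2.49 and 1.5 CPM and ID4 1.92, 1.62 and 2.19 CPM. All ID1 libraries were above GFP and all libraries of the other ID groups were below it. CCL2 was 4.29-fold higher in ID1 than in ID2 (log2 fold change of ID2 against ID1 -2.10 ± 0.24, edgeR adjusted p = 2.81e-06), 3.50-fold higher than in ID3 (edgeR adjusted p = 2.99e-05) and 3.14-fold higher than in ID4 (edgeR adjusted p = 8.25e-05). These 3 calls were kept in each fit that left out 1 library. ID3 overlapped ID2 and ID4, every ID4 library was above every ID2 library, and no difference among these 3 groups passed the test.

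NFKBIA encodes IkB-alpha, which holds NF-kB in the cytoplasm and is quickly remade when NF-kB is active (chromosome 14, 35870285 to 35873955, minus strand, GRCh37). It had 3165 to 5531 counts per library and moved little. The ID1 libraries held 365, 379 and 368 CPM, those of ID2 320, 329 and 299 CPM, those of ID3 337, 362 and 360 CPM and those of ID4 283, 285 and 283 CPM, beside 331, 319 and 330 CPM in GFP. Every ID4 library was below every other library. ID1 was 1.29-fold above ID4 (log2 fold change of ID4 against ID1 -0.37 ± 0.05, edgeR adjusted p = 2.56e-05), ID3 was 1.23-fold above ID4 (edgeR adjusted p = 0.000332) and ID1 was 1.15-fold above ID2 (edgeR adjusted p = 0.00596). ID2 was 1.13-fold above ID4 (edgeR adjusted p = 0.0153), or adjusted p = 0.0637 without ID2 replicate 2. ID3 against ID2 missed the threshold (edgeR adjusted p = 0.0904) and passed it without ID3 replicate 1 (0.0359).

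TNFAIP3 encodes A20, a ubiquitin-editing enzyme that switches off signalling above IKK (chromosome 6, 138188351 to 138204451, plus strand, GRCh37). Its libraries held 6.21, 8.15 and 6.49 CPM in ID1, 6.05, 6.58 and 7.26 CPM in ID2, 7.48, 6.40 and 6.43 CPM in ID3 and 5.06, 5.95 and 4.09 CPM in ID4. All ID4 libraries were below those of ID1, ID2 and ID3, yet the difference among ID groups did not pass the test (edgeR adjusted p = 0.0897). ID4 against ID2 passed it only without ID4 replicate 2, at a log2 fold change of -0.55 (edgeR adjusted p = 0.0420). GFP, at 5.14, 4.81 and 4.94 CPM, lay below the libraries of ID1, ID2 and ID3 and within the range of ID4.

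**Figure D2:**
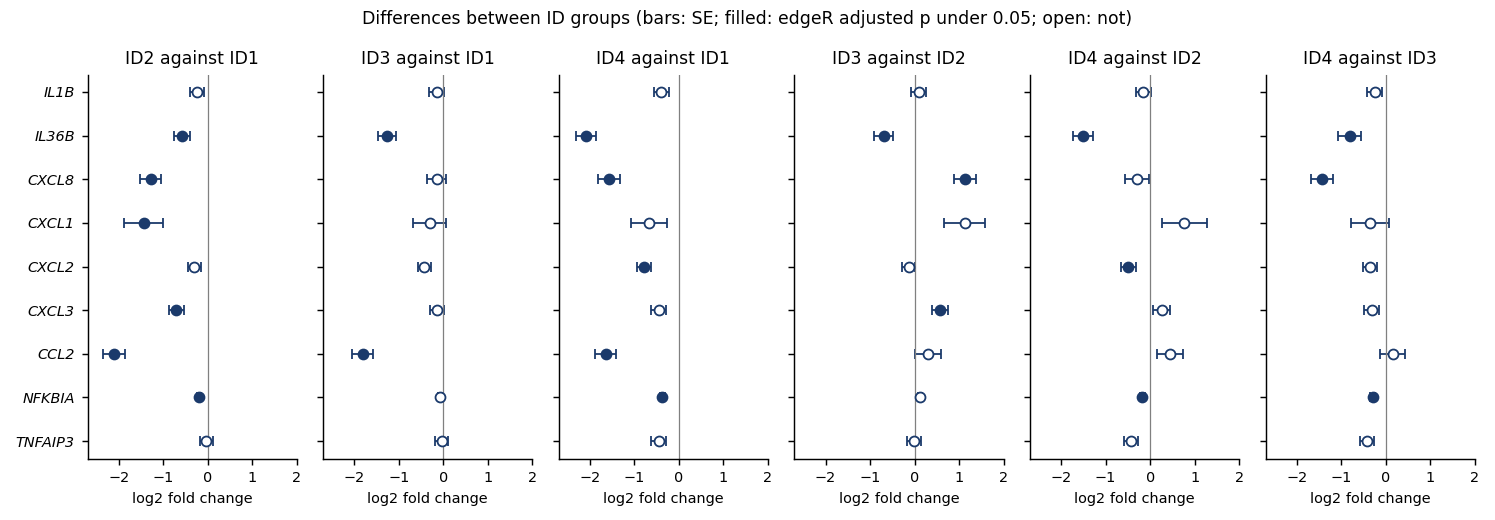
log2 fold change between each pair of ID groups (horizontal axis, first-named minus second) with its SE for the 9 genes that were tested, each fit over 15 libraries, filled where the edgeR adjusted p is under 0.05. Against ID1 the filled points lie to the left, with CCL2 at -2.10 in ID2, -1.81 in ID3 and -1.65 in ID4, while IL1B has no filled point.

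Of the 10 genes, 9 passed the filter on low values and 6 of these differed among the ID groups, IL36B, CXCL8, CXCL2, CXCL3, CCL2 and NFKBIA, beside 29.1% of the 12870 genes tested. In pairs of groups, 6 of the 9 were lower in ID2 than in ID1 (18.6% of all tested genes differed in either direction), 2 were lower in ID3 than in ID1 (9.18%) and 5 were lower in ID4 than in ID1 (4.87%). None was called higher than in ID1 in these 3 comparisons. ID3 differed from ID2 in 3 genes, CXCL8 and CXCL3 higher and IL36B lower (15%). ID4 was lower than ID2 in 3 (18.6%) and lower than ID3 in 3 (11.3%). With only the 2 groups compared in the fit, ID3 against ID2 and ID4 against ID2 each kept 1 call. The count for ID2 against ID1 was 4 under DESeq2, 5 under limma and 4 to 6 with single libraries left out. The median log2 fold change of the 9 was -0.57 for ID2 against ID1, -0.15 for ID3 against ID1 and -0.67 for ID4 against ID1, and that of all tested genes was 0.00 in each.

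The differences of the 10 genes from GFP went both ways. IL1B was lower, and IL36B higher, in all 4 groups. Log2 fold changes of CXCL8 were 0.07 in ID1, -1.21 in ID2, -0.08 in ID3 and -1.50 in ID4, the ID2 value becoming -0.83 without ID2 replicate 3. Those of CXCL1, from 3 to 10 counts in GFP (0.550 CPM), were 1.00, -0.43, 0.70 and 0.33, those of CXCL2 -0.10, -0.40, -0.53 and -0.88, those of CXCL3 0.04, -0.67, -0.10 and -0.41, and those of CCL2 0.90, -1.20, -0.90 and -0.74. NFKBIA differed from GFP by 0.16, -0.03, 0.09 and -0.21 and TNFAIP3 by 0.47, 0.43, 0.43 and 0.01.

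The other genes of the pathway were taken from 10 lists of 101 genes, of which 99 had a single entry and 57 were tested. Against GFP, 13 rose and 6 fell in ID1, 9 rose and 20 fell in ID2, 10 rose and 11 fell in ID3, and 7 rose and 13 fell in ID4, which is 33.3%, 50.9%, 36.8% and 35.1% of those tested. Of all tested genes 22.1% were called in ID1 (12.4% higher, 9.73% lower), 35.1% in ID2 (18.5% higher, 16.7% lower), 28.6% in ID3 (15.1% higher, 13.5% lower) and 21.6% in ID4 (12.1% higher, 9.51% lower). The 4 comparisons share the GFP libraries. In fits that left out each library in turn, 9, 21, 12 and 12 of these calls were kept in all 15. The ID4 count was 13 without ID4 replicate 2. The median log2 fold change over the 57 was -0.05, -0.14, -0.01 and -0.09, against 0.00 for all tested genes in each group.

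The antagonist of IL1 and 2 of the 4 tested receptors, IL1R1 and IL1R2, rose. IL1RN, the secreted antagonist that blocks IL1R1, averaged 1.77 ± 0.385 CPM in GFP, 7.85 ± 1.13 in ID1, 8.61 ± 1.04 in ID2, 2.87 ± 0.206 in ID3 and 3.67 ± 0.763 in ID4 (n = 3). Its log2 fold changes were 2.14, 2.30, 0.68 and 1.06, the ID3 value with edgeR adjusted p = 0.0343 and lost without GFP replicate 1 or 2 or ID3 replicate 2 or 3 (up to 0.156). IL1R1, the signalling receptor, rose from 19.3 CPM to 28.5, 36.9, 32.8 and 26.5 CPM, and these 4 calls were kept in every leave-out fit. IL1R2, a decoy receptor that binds IL1 without signalling, averaged 0.493 CPM in GFP, from 5 to 8 counts, and 1.65, 1.78, 2.40 and 1.24 CPM in ID1 to ID4. Its rise in ID4 was lost without any 1 of the GFP libraries or ID4 replicates 1 or 2 (edgeR adjusted p up to 0.138). SIGIRR, an inhibitory receptor, fell in ID2 (-1.15, edgeR adjusted p = 0.0200, lost without GFP replicate 2 or ID2 replicate 1 or 2), and IL1RAP, the co-receptor, was called in no group. The other 7 ligands and antagonists on the list had 0 to 10 counts and were not tested, IL36A having 0 in every library.

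Of the 4 tested genes of IL1B maturation, 1, 2, 2 and 1 were called in ID1 to ID4, each of them lower. Beside this, 22.1%, 35.1%, 28.6% and 21.6% of all tested genes were called in either direction. NLRP1 was called in no group. GSDMD, whose cut form makes the pore through which IL1B leaves the cell, fell from 18.1 CPM to 12.9, 11.6 and 12.5 CPM in ID1, ID2 and ID4, and in ID3, at 15 CPM, the call (edgeR adjusted p = 0.0466) was lost in 9 of the 15 leave-out fits and under DESeq2. CASP1, the protease that cuts the precursor, was 4.78 CPM in GFP and 2.71 CPM in ID2 (edgeR adjusted p = 0.0116, lost without GFP replicate 1 or ID2 replicate 2). AIM2, a DNA sensor, was 5.65 CPM in GFP and 3.47 CPM in ID3 (edgeR adjusted p = 0.0156, lost without ID3 replicate 1). PYCARD and NLRP3, which form the inflammasome with CASP1, had 0 and 0 to 2 counts.

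Among 13 tested adaptors and kinases, IRAK1 fell in ID2 and ID3, from 371 CPM to 301 and 321 CPM. IRAK2, from 8.05 to 4 CPM, and CHUK, the IKK-alpha kinase, from 64.4 to 48.3 CPM, fell in ID2. TAB2, an adaptor of TAK1, rose in ID1, ID2 and ID4 by 0.32, 0.34 and 0.36 on the log2 scale, calls that were lost without ID2 replicate 2 in ID2, without ID4 replicate 2 in ID4 and in 4 leave-out fits in ID1. Of the 5 NF-kB subunits, 1, 3, 2 and 3 were called in ID1 to ID4, each of them lower. Of all tested genes, 12.4%, 18.5%, 15.1% and 12.1% were called higher and 9.73%, 16.7%, 13.5% and 9.51% lower. RELA, the main activating subunit, fell from 155 CPM to 127, 112, 136 and 116 CPM, the ID3 call being lost without GFP replicate 1 or ID3 replicate 1 or 3. RELB fell from 46.8 CPM to 36.6 in ID2, 38.0 in ID3 and 28.4 CPM in ID4, the ID3 call being lost without GFP replicate 3 or ID3 replicate 1. NFKB1 fell in ID4 (edgeR adjusted p = 0.00673, lost without ID4 replicate 2) and NFKB2 in ID2 (edgeR adjusted p = 0.0225, lost in 4 leave-out fits), while REL was called in no group.

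Further feedback genes split. TNIP3, a partner of A20, rose from 4.13 CPM to 7.96 in ID1 and 6.51 in ID2 and was 6 CPM in ID3 (edgeR adjusted p = 0.0397, lost in 5 leave-out fits) and 3.24 CPM in ID4. ZC3H12A, an RNase that destroys cytokine mRNAs, rose from 8.07 CPM to 13.8 in ID1 and 12.3 in ID3. In ID2, at 10.2 CPM, its call (edgeR adjusted p = 0.0379) was lost in 4 leave-out fits. TNIP2, which binds A20 and NFKB1, fell from 17.4 CPM to 13.2 in ID2, 12.6 in ID3 and 11.6 CPM in ID4, each kept in every leave-out fit. BIRC3, an NF-kB-induced ubiquitin ligase, fell in ID2 from 3.11 to 1.13 CPM.

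Other NF-kB target genes also moved in both directions. In ID1 4 of the 7 tested genes were called (2 higher, 2 lower), in ID2 7 (1 higher, 6 lower), in ID3 4 (2 higher, 2 lower) and in ID4 5 (1 higher, 4 lower), beside 22.1%, 35.1%, 28.6% and 21.6% of all tested genes. Their median log2 fold change in ID2 was -0.80. ICAM1, an adhesion receptor for leukocytes, fell from 4.31 CPM to 1.90 in ID2 and 2.52 in ID4, and CSF3, the granulocyte growth factor, from 29.8 CPM to 16.5 in ID2 and 18 in ID3. CSF3 was also called lower in ID1 (edgeR adjusted p = 0.0162, lost without ID1 replicate 3). PTGS2, the inducible prostaglandin synthase, fell from 5.53 to 2.83 CPM in ID4, and in the other groups its calls were lost without GFP replicate 1 among others. IL32, a cytokine, fell in ID4 from 1.72 to 0.415 CPM. It was also called lower in ID2 (edgeR adjusted p = 0.0411), a call lost in 4 leave-out fits. SOD2, the mitochondrial superoxide dismutase, rose from 167 CPM to 269, 260 and 264 CPM in ID1, ID2 and ID3 and was 162 CPM in ID4. TNFAIP2 was called in each group, with log2 fold changes of 0.25, -0.80, 0.44 and 0.31 in ID1 to ID4, the ID1 call being lost without GFP replicate 1. IRF1 was called lower in ID2 (-0.53) and in ID4 (-0.31, lost without ID4 replicate 2 or 3). SOD2, TNFAIP2 and IRF1 lie outside the naming rule and were named after their values had been seen. Of 15 further chemokines 3 were tested, of which CCL26, an eosinophil attractant, rose in ID2 from 0.766 to 3.52 CPM and CXCL5 in ID1 and ID3 from 1.22 to 2.52 and 2.45 CPM. Both CXCL5 calls were lost without GFP replicate 1 or 2. None of 9 chemokine receptors was tested: CXCR1, which binds CXCL8, had 0 counts and CXCR2, which binds all 4 CXC chemokines of the set, had 0 to 1. Of 7 proteins that act on AU-rich mRNAs such as those of cytokines, 3 were called in each group (1 higher, 2 lower), beside those same shares. ZFP36L2 rose from 39.8 CPM to 50.4 in ID2 and 49.8 in ID3. It was also called higher in ID1 and ID4 (edgeR adjusted p = 0.0196 and 0.0288), each lost in 3 leave-out fits. HNRNPD fell from 325 CPM to 237, 287 and 281 CPM in ID2, ID3 and ID4. On the log2 scale ZFP36L1 differed by -0.16 in ID1 (lost in 3 leave-out fits) and -0.25 in ID3. KHSRP differed by -0.29 in ID1 and -0.23 in ID4, lost in 1 and 9 leave-out fits.

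**Figure D3:**
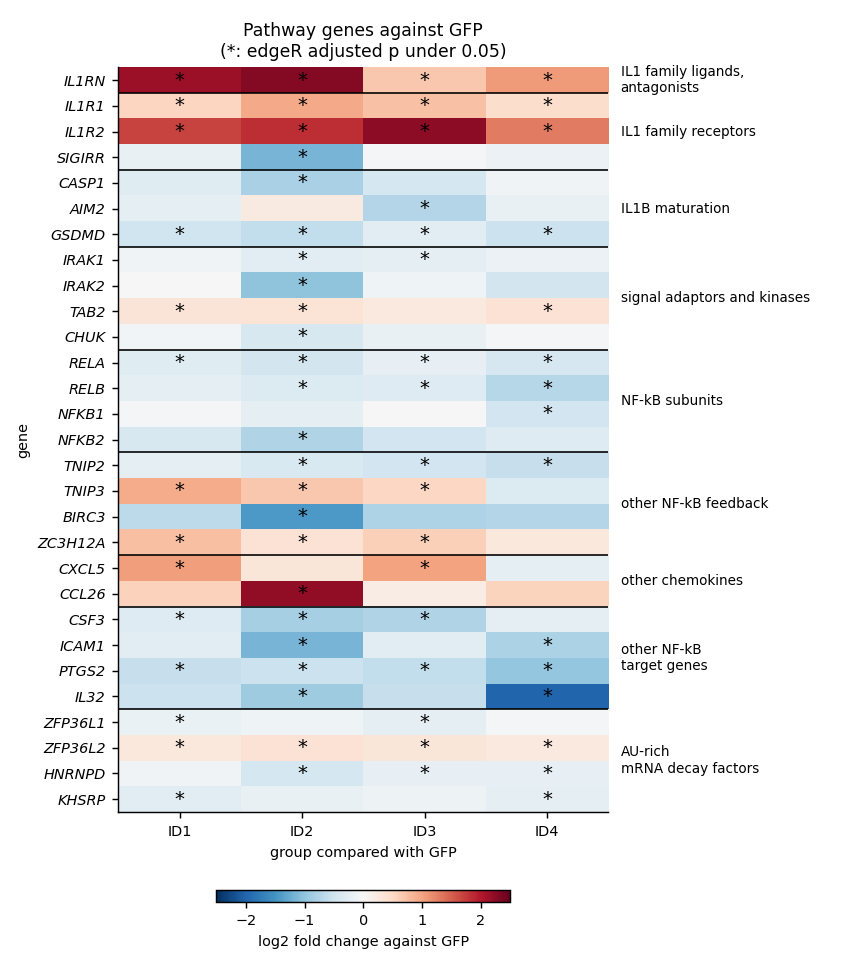
log2 fold change against GFP (colour) of the 29 pathway genes named by rule (vertical axis) in the 4 ID groups (horizontal axis), 3 libraries per group, with a star where the edgeR adjusted p is under 0.05. IL1RN, IL1R1 and IL1R2 are red in each column, and the NF-kB subunits RELA, RELB, NFKB1 and NFKB2 have stars only on blue.

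IL1B, IL1A and IL36B lie in a cluster of IL1 family genes, and their neighbours within 500 kb were compared with GFP on the GRCh37 annotation. Of 18 other genes with an entry, 11 were tested. In ID1, ID2, ID3 and ID4, 3 of them rose in each, and 3, 2, 3 and 2 fell, beside the 22.1%, 35.1%, 28.6% and 21.6% of all tested genes that were called. IL1RN, 46.4 kb from IL36B, is given above. CKAP2L, a spindle protein gene 9.3 kb from IL1A, fell from 78.3 CPM to 68.5, 54.3, 53.7 and 62.1 CPM, and SLC20A1, a phosphate transporter gene 110 kb from IL1A, from 505 CPM to 372, 322, 405 and 421 CPM. PAX8-AS1 rose from 9.71 CPM to 13.9, 12.3, 14.8 and 17.5 CPM. It overlaps PAX8 on the other strand, and whether the counting used strand is not given in the sources used here. IL36G, IL36RN, IL37, IL36A and IL1F10, which lie between IL1B and IL1RN, had 0 to 10 counts. Around the CXCL genes 15 other genes had an entry and 5 were tested, of which CXCL5 is given above. EREG, a ligand of the EGF receptor, fell from 19.6 CPM to 14 in ID1, 13.5 in ID3 and 11.2 in ID4. CXCL6, PF4, PF4V1 and PPBP, the other CXC chemokine genes there, had 0 counts in every library.

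**Figure D4:**
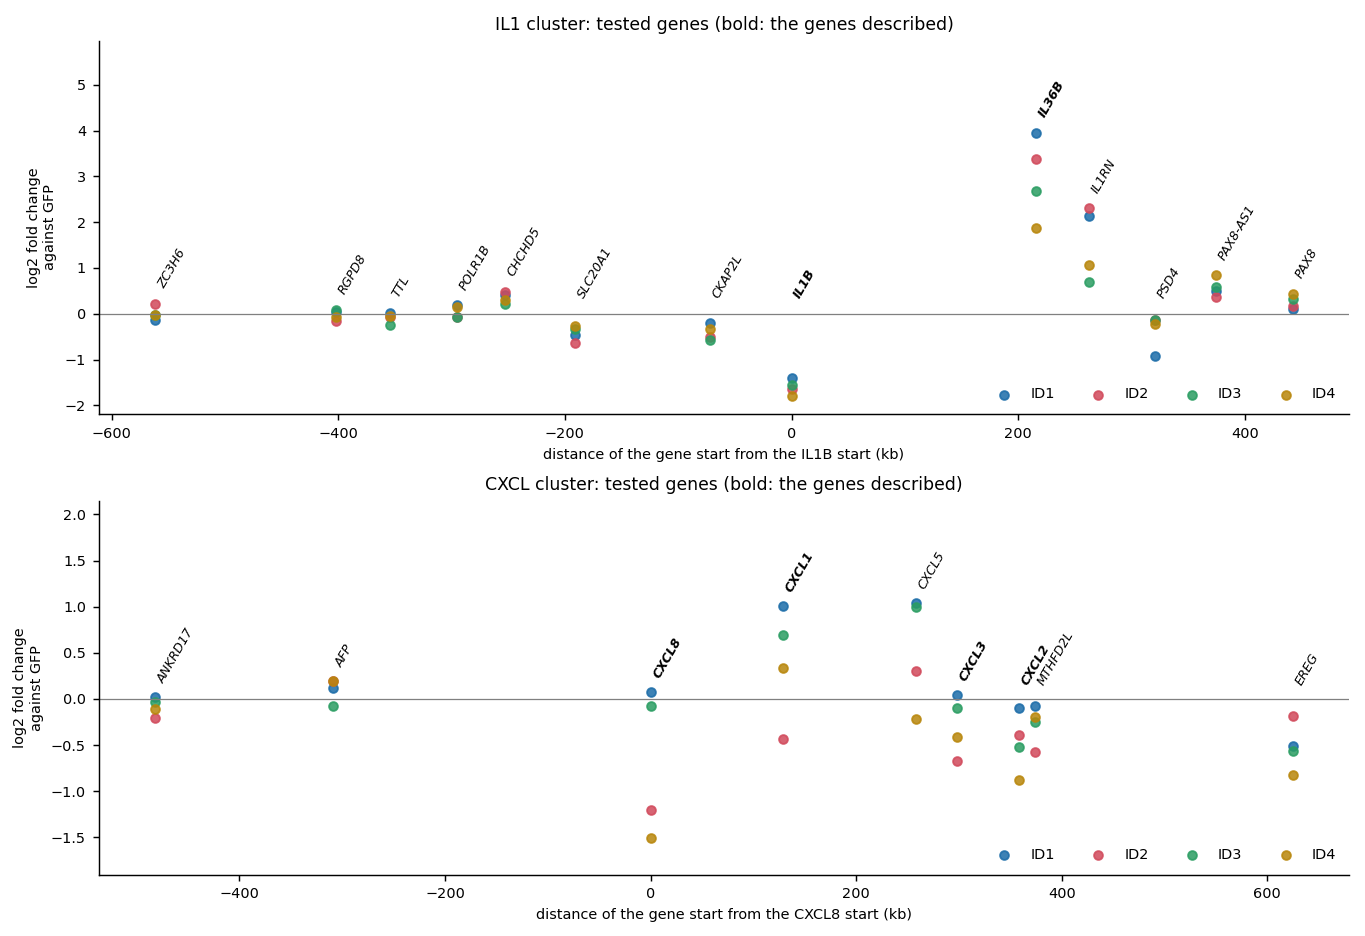
log2 fold change against GFP (vertical axis) of the tested genes near the IL1 genes and near the CXCL genes, by the distance of their start from that of IL1B or CXCL8 in kb (horizontal axis), 1 point per ID group. IL1B lies at -1.40 to -1.80, IL36B at 1.87 to 3.95 and CKAP2L, the nearest tested gene before IL1B, at -0.21 to -0.56.

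The genes whose pattern over the 5 group means was most like that of IL1B were CHAC1, NDRG1, SPPL2A, SLC7A11 and RIPK4, out of 12869 ranked by the root mean square difference of centred log2 CPM. CHAC1, a glutathione-cleaving enzyme, was closest at 0.0853, with 4.29 CPM in GFP and 1.36, 1.20, 1.35 and 1.17 CPM in ID1 to ID4. NDRG1, known as a hypoxia and stress-induced gene, followed at 0.0866, with 2066 CPM in GFP and 839, 663, 835 and 651 CPM. SLC7A11, the cystine transporter, was at 0.152, with 52.0 CPM in GFP and 19.1, 12.8, 18 and 15.1 CPM. SPPL2A and RIPK4 were at 0.134 and 0.194. In the same ranking CXCL2 stood at place 339, CXCL3 at 1260, CXCL8 at 5144, NFKBIA at 5188, CCL2 at 10581, TNFAIP3 at 10595, CXCL1 at 12072 and IL36B at 12857. The ranking reuses the difference from GFP on which IL1B was selected, so it is a description without a test. The distance also depends on the size of the change. NFKBIA, which moved little, stood at 5188, so a middle place does not mean a partial likeness.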

How the data were processed

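RNA of U87MG cells was sequenced from 3′ ends in 15 libraries, 3 in each of the 5 groups that the sample titles give. The authors deposited 1 table with raw counts per gene and normalized log2 values, 15 columns of each. Bowtie2, BWA and hg19 are named in the submitters' processing notes without role or version, and the counting and normalization are not given in the sources used here. Raw counts as deposited were fitted with edgeR 4.0.16 in R 4.3.3 (quasi-likelihood, TMM factors 0.978 to 1.03, 1 mean per group over all 15 libraries) for the 12870 entries in the upper 50% of mean deposited log2 values, with Benjamini-Hochberg adjustment over all of them and a threshold of 0.05. CPM is the count over the library total, not scaled for length, so levels are not compared between genes. SE is the fitted log2 fold change divided by the root of F. The detection floor of 3 counts covers counting error only.

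The 10 genes and the pathway and marker lists were chosen with earlier results of these data known. Named pathway genes were up to 4 per list with the largest absolute mean log2 fold change against GFP among those called in at least 1 group. The 5 genes most like IL1B and the tested neighbours within 500 kb were named too. TNF, IER3 and AIF1 had several entries each and were not evaluated. Alternatives were the filterByExpr filter, no filter, DESeq2 1.42.0, limma 3.58.1 with trend on the deposited log2 values, only the groups compared, a replicate block, and leaving out each library. Figures were drawn with matplotlib 3.10.9.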

Additional observations from a re-analysis of the deposited data

Results flagged for a closer look

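In 6 of the 9 tested genes of the set the difference from GFP was not the same in the 4 ID groups, by the edgeR test between those groups. Of all 12870 tested genes, 29.1% differed in that test. The largest pairwise log2 fold change of IL36B was -2.08, in ID4 against ID1, and that of CXCL8 was -1.58 in the same pair. CXCL2 differed by -0.78 and NFKBIA by -0.37, also in ID4 against ID1. CCL2 differed by -2.10 and CXCL3 by -0.71 in ID2 against ID1.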

How the results depend on the processing

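Of 1134 log2 fold changes of the 9 tested genes between ID groups under the alternatives, 1082 kept their direction and side of the threshold, 39 lost the threshold, 3 passed it and 10 reversed. The reversed values were uncalled and came from leaving out 1 library. Their lowest and highest values were -0.063 and 0.21 for IL1B in ID3 against ID2, -0.23 and 0.049 for CXCL3 in ID3 against ID1, -0.061 and 0.50 for CCL2 in ID3 against ID2, -0.050 and 0.51 for CCL2 in ID4 against ID3, and for TNFAIP3 -0.11 and 0.099 in ID2 against ID1, -0.11 and 0.092 in ID3 against ID1 and -0.075 and 0.070 in ID3 against ID2. Against GFP, 753 of 756 values moved by less than 1 SD between libraries, taken from the fitted SE. Leave-out values crossed 0 there for CXCL8 in ID1 (-0.064 to 0.21) and ID3 (-0.21 to 0.057), CXCL1 in ID4 (-0.15 to 0.72), CXCL2 in ID1 (-0.21 to 0.035), CXCL3 in ID1 (-0.15 to 0.12) and TNFAIP3 in ID4 (-0.12 to 0.14). With only the groups compared, 1 of the 9 genes differed in ID3 against ID2 and 1 in ID4 against ID2, where the fit over all libraries gave 3 each, and leaving out a library gave 1 to 3 and 1 to 4. Pathway genes in ID4 against GFP numbered 13 to 23 over the leave-out fits. The cause was not tested. Deviations of libraries with equal replicate numbers correlated at -0.02 on average over 30 pairs (-0.24 to 0.23), so the numbers were not taken to pair the samples. A fit with replicate number as block left 6 genes differing among the ID groups, 2 in place of 3 in ID4 against ID3 (IL36B, edgeR adjusted p = 0.0511), and the other counts of the 9 genes did not change. Low counts limit IL1A and CXCL1, and in GFP also IL36B and IL1R2.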
